A study of Mus musculus with 4 samples.

Results

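Wnt ligands, their Frizzled receptors and the secreted antagonists of the Sfrp and Dkk families were described in mouse embryonic stem cells (ESCs) treated with MS-275, an inhibitor of class I histone deacetylases. The genes were taken by symbol (Wnt, Fzd, Sfrp or Dkk followed by the family number), which gave 37 of the 28250 genes listed: 19 Wnt ligands, 10 Frizzled receptors, 4 Sfrp genes (Sfrp1, Sfrp2, Sfrp4 and Sfrp5) and 4 Dkk genes (Dkk1 to Dkk4). The rule uses symbols and no measured value, though the set was proposed with earlier results of these data known.

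Poly(A) RNA of TBV2 cells, a feeder-dependent ESC line kept with LIF, was sequenced after 24 h with solvent (2 libraries) or after 24 h with 5 µM MS-275 (2 libraries). The labels do not say whether replicates were separate cultures, so p-values measure the spread between these libraries, which may be technical. Files of the control alignments carry the label ETOH and another assay of the study used DMSO, so the controls are called solvent here. As the line is feeder-dependent, feeder cells may have been present in these cultures. Whether the line carried its EGFP transgene in these libraries is not given in the sources used here.

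Wnt proteins are lipid-modified secreted ligands that bind the extracellular domain of Frizzled receptors. In the canonical branch, Frizzled and the co-receptors Lrp5 and Lrp6 block the complex that degrades beta-catenin, which then acts with TCF/LEF factors on target genes, whereas other ligand and receptor pairs act on cell polarity and movement. Sfrp proteins carry a Frizzled-like domain and bind ligands outside the cell, Dkk1, Dkk2 and Dkk4 bind Lrp5 and Lrp6, and canonical Wnt activity is known to help ESCs keep self-renewing.

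Each gene has a normalized expression value per library. For genes such as Wnt9a the value equalled the alignments per exon base and per library total to within 1%, up to a constant, so it is read here as a level per length. The deposited alignments numbered 9785619 to 23467935 per library. The values followed their own condition's other alignment file more closely than the file filed under the same replicate number: for Wnt9a the ratio of value to expectation was 1.003 in all 4 libraries with these, and between 0.582 and 1.73 with the same-numbered files. Among members with at least 20 alignments, 45.2% to 52.4% of the values came within 10% of this expectation, and 9.52% to 19.4% with the same-numbered files. Over all genes with at least 100 alignments, 6.79% to 7.56% came within 2%, against 1.23% to 2.88% with the same-numbered files. The match thus holds for part of the genes. Other members departed from it, such as Wnt5a at 2.25 to 3.44 times, Fzd10 at 0.475 to 1.36 times and Sfrp2 at up to 5.14 times. Levels of different genes are therefore set side by side as values, and their order is approximate. On that match the replicate 1 values rest on alignments without any repeated position and the replicate 2 values on alignments of which 53.2% and 54.4% repeat a position, while the condition of each library is the same under both assignments. Alignment counts below are those matched to the value, and replicate numbers are those of the values. The 10 ESC markers were all detected and their summed value was 6.08 and 23.2 with solvent (replicates 1 and 2) and 4.83 and 13.6 with MS-275.

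All 19 ligands stood at low levels with solvent, as did Fzd1, Dkk1, Dkk2 and Dkk4. The highest mean solvent levels among the Wnt genes were 0.0150 (Wnt5a) and 0.0122 (Wnt7b), whose ranges overlapped and whose order was the reverse in exon positions per kb (14.1 and 28.1), and 2 ligands (Wnt1 and Wnt9b) were listed at 0 in both solvent libraries. Receptors and antagonists reached 0.519 (Fzd7), 0.474 (Fzd5), 0.304 (Sfrp1) and 0.109 (Sfrp4). The Fzd7 and Fzd5 ranges overlapped, so their order is not settled by these libraries. With MS-275 the highest mean among the ligands was 0.0379 for Wnt9a, then 0.0313 for Wnt16 and 0.0279 for Wnt8a, while Wnt5a stood at 0.00819 and Wnt7b at 0.00596.

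**Figure D1:**
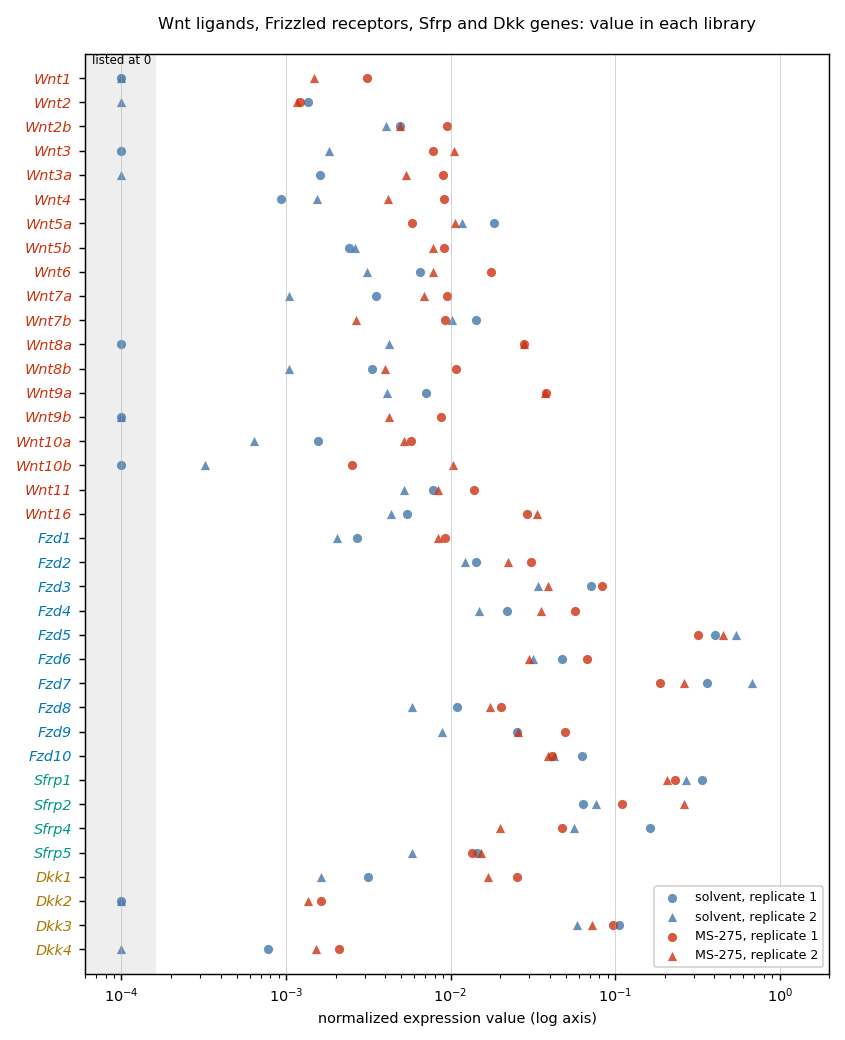
Normalized expression value (log axis) of the 37 genes in the 2 solvent (blue) and 2 MS-275 (red) libraries, with circles for replicate 1, triangles for replicate 2 and values of 0 in the grey band. Most Wnt ligands lie below 0.01 with solvent and further right with MS-275, while Fzd5, Fzd7 and Sfrp1 lie furthest right with solvent, joined by Sfrp2 in MS-275 replicate 2.

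Changes were tested as log2(value + 0.005) with limma in the 20336 genes listed at 0.001 or more in 2 or more libraries. The constant understates the change of genes near it, which includes most Wnt ligands. All 37 genes passed this filter, 5 of them (Wnt1, Wnt9b, Wnt10b, Dkk2 and Dkk4) only through their MS-275 values, so a difference in these 5 was a condition of their being tested. Comparing the group means alone, 0 of the 37 genes passed an adjusted p of 0.05 in either direction, as against 0.00492% (higher) and 0% (lower) of all genes tested. At an unadjusted p under 0.05, 16 of the 37 were higher and 2 lower, beside 2974 and 564 of all genes.

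In the headers of the authors' shorter tables (genes at 0.001 or more) the replicate 1 values of solvent and of MS-275 are both marked OLD, and the libraries of one replicate number deviated together from their group means (r = 0.764 across 20336 genes, which are not independent replicates). On the match above, the replicate numbers also differ in whether the alignments behind their values repeat positions. By distinct positions the same correlation was 0.501 across 14946 genes. What the replicate number stands for was not tested. A fit with the replicate number as a block compares the conditions within each replicate number. A gene is named as higher or lower below where its adjusted p in this fit was under 0.05. With the block, 19 of the 37 genes were higher with MS-275, against 21.0% of all genes tested, and 2 were lower, against 6.46%. The median log2 fold change was 0.79 over the 37 genes (0.81 with the genes at 0 in solvent set to their lower bound) and 0.20 over all genes tested. After median-ratio scaling, which moved the median of all genes to -0.01, the median of the 37 was 0.63. Without the 5 genes that passed only through MS-275, 17 of 32 were higher and 2 lower.

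By role and with the block, 13 Wnt ligands were higher and 0 lower (median log2 fold change 0.84), 4 Frizzled genes were higher and 1 lower (median 0.49), and among the antagonists 1 Sfrp gene was higher and 1 lower (median -0.02), with 1 Dkk gene higher and 0 lower (median 0.36). The count for the receptors depended on the scaling: 2 Frizzled genes were higher after median-ratio scaling (median 0.25) and 0 after quantile normalization (median 0.10), with 1 lower in both, and without one library their median lay between 0.19 and 0.83. For the ligands these counts were 12 higher and 1 lower, and 7 higher and 2 lower. Each count of higher ligands includes Wnt9b and Wnt10b, which were tested only through their MS-275 values. The MS-275 libraries lay above both solvent libraries in 24 of the 37 genes, against 32.3% of all genes tested. They lay below them in 6, against 12.0%. For Wnt1, Wnt9b, Wnt10b, Dkk2 and Dkk4 the filter itself fixed the order, and without these genes 19 of 32 lay above. As a count with no test, 16 of the 37 genes rose 2-fold or more in each replicate pair, against 11.5% of the 28250 genes listed. A fall of that size was seen in 1, against 2.04%. The 28250 include genes that failed the filter and could show neither, which lowers both shares, whereas all 37 passed it. Without the genes that passed the filter only through MS-275, 14 of 32 rose.

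Low solvent levels were common among the genes that were higher. Of the 19 members with a mean solvent value under 0.005, 14 were higher with the block, beside 34.8% of the 5020 genes at that level. Between 0.005 and 0.05 these were 4 of 10 members, beside 27.4% of 5697 genes, and at 0.05 or more 1 of 8 was higher and 2 lower, beside 10.02% and 10.9% of 9619 genes. The solvent values enter both the level and the fold change, so these shares are a description. Wnt1, Wnt9b, Wnt10b, Dkk2 and Dkk4, tested only through their MS-275 values, all lie under 0.005, and Wnt9b and Wnt10b are among the 14. At that level 0.38% of all genes were lower with the block.

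**Figure D2:**
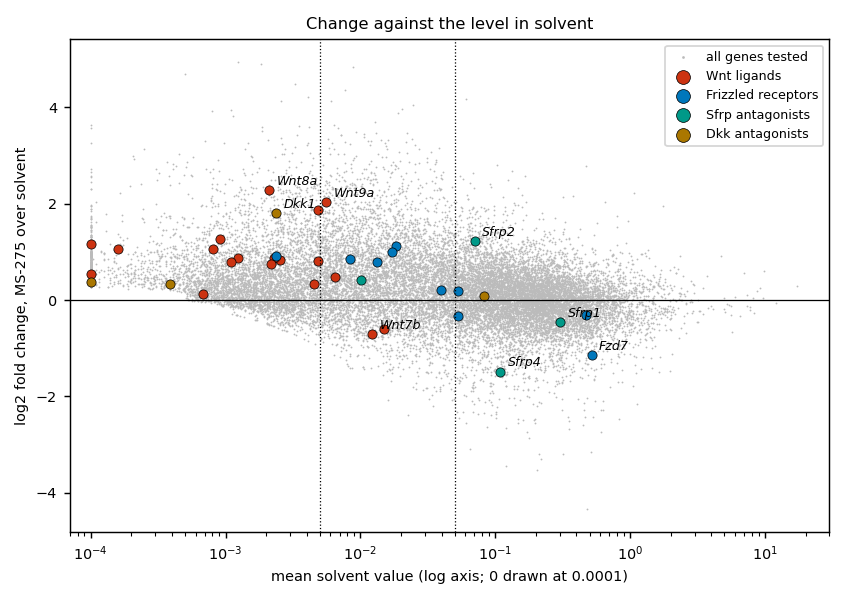
Log2 fold change of MS-275 over solvent against the mean solvent value (log axis) for all 20336 genes tested (grey) and the 37 Wnt pathway genes coloured by role, with dotted lines at 0.005 and 0.05. The ligands with the largest positive changes sit left of or just past 0.005, and Fzd7 and Sfrp4 sit below 0 at the right.

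Counting distinct alignment positions in exons, so that repeated positions weigh 1, gave a second measure for the 32 members with enough reads. With limma-voom and no block, 12 of the 32 were higher, against 17.5% of 14946 genes, and 3 were lower (Fzd7, Sfrp1 and Sfrp4), against 6.05%. With the block 19 were higher, against 32.5%, and 4 lower, against 15.4%. In Wnt3a, Wnt4, Wnt7a, Wnt9b, Wnt10a and Dkk1 no solvent library reached the 10 positions needed, so they were tested only through MS-275. All of them are among the 19, and all but Wnt10a are among the 12. The reads are shared with the values, so this measure is another processing of the same libraries.

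On log2(value + 0.005), Wnt8a, Wnt9a and Wnt16 had the largest changes among the ligands. By distinct positions, where low genes are not held back by the constant, the order differed, with log2 fold changes of 6.07 in Wnt9b (a fitted value that depends on the offset added to its 0 solvent positions), 3.97 in Wnt7a, 3.83 in Wnt3a, 3.44 in Wnt3 and 3.42 in Wnt8a, and about 2.74 in Wnt9a and Wnt16. Solvent positions were also few in Wnt7a (2 and 2), Wnt3a (4 and 0), Wnt3 (0 and 10) and Wnt8a (1 and 13). The sizes and the order of these changes are therefore approximate. Wnt9a, a canonical ligand known from joint and skeletal development, lies at positions 59120430 to 59147054 of chromosome 11 (mm9). It stood at 0.00708 and 0.00411 with solvent and 0.0381 and 0.0377 with MS-275 (replicates 1 and 2 in each, as in all pairs of values below). The log2 fold change was 2.03 (standard error 0.311 with the block, adjusted p = 0.000206, limma; adjusted p = 0.117 without the block). Both MS-275 libraries stood more than 5-fold above their solvent partner, at 5.38-fold and 9.16-fold. Exons held 23 and 32 alignments with solvent and 138 and 250 with MS-275.

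Wnt16, a ligand known in bone and in hematopoietic stem cell specification (chromosome 6 of mm9, 22238227 to 22250409), had values of 0.00541 and 0.00432 with solvent and 0.0290 and 0.0335 with MS-275. The change was 1.88 (standard error 0.308, adjusted p = 0.000364 with the block in limma), and the groups did not overlap. Wnt8a, which acts in the primitive streak of the early embryo, was listed at 0 and 0.00421 with solvent and at 0.0278 and 0.0281 with MS-275. The change was 2.28 on the log2 scale (standard error 0.312, adjusted p = 8.1e-05 with the block in limma), and the MS-275 libraries agreed more closely with each other than the solvent libraries did. The alignment counted in the first solvent library was 1, so the listed 0 and a low level cannot be told apart there.

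The promoter regions of Wnt9a and Wnt16 show how unlike the start regions of ligands that were higher in the same libraries were. They run from 250 bases before to 50 after the gene start in RefSeq (GRCm38.p6, a later build than the mm9 positions of the genes) and are printed 5′ to 3′ on the strand of the gene. Wnt9a is at chr11:59306680-59306979 (plus strand) and Wnt16 at chr6:22287977-22288276 (plus strand). Capitals mark the GC box (GGGCGG or CCGCCC) and the E-box (CACGTG) in Wnt9a, and the CCAAT box (CCAAT or ATTGG) in Wnt16.
Wnt9a: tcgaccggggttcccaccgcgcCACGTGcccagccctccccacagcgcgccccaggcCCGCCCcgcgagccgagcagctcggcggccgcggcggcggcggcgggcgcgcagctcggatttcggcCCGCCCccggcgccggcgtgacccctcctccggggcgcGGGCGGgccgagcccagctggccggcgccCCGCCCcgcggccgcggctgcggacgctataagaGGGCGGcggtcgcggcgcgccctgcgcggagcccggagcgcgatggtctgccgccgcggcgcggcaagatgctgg
Wnt16: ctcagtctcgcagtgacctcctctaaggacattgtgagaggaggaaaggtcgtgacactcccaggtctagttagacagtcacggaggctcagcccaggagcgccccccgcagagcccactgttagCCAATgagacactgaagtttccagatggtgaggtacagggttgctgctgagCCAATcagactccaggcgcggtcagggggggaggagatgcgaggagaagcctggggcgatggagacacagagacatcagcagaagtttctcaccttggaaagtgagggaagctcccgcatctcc
The Wnt9a window holds 58 CG dinucleotides and 5 GC boxes, and the Wnt16 window holds 10 CG dinucleotides, no GC box and 2 CCAAT boxes.

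Wnt3 and Wnt3a are close paralogs and canonical ligands, and Wnt3 is required for the primitive streak. Wnt3 stood at 0 and 0.00182 with solvent and at 0.00784 and 0.0105 with MS-275 (log2 fold change 1.27, adjusted p = 0.00126 with the block in limma). Wnt3a stood at 0.00161 and 0 with solvent and at 0.00901 and 0.00536 with MS-275 (1.07, adjusted p = 0.00328). In both paralogs every MS-275 library lay above every solvent library, and in each of them 1 solvent library was listed at 0.

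Wnt9b, a ligand that acts in kidney development, was listed at 0 in both solvent libraries and at 0.00869 and 0.00423 with MS-275. In exon positions it had 0 with solvent and 63 with MS-275, at least 21.8-fold higher against a floor of 3 positions over the group. Its fitted log2 fold change depends on the constant 0.005, as does that of Wnt1, which was also at 0 in both solvent libraries and at 0.00312 and 0.00148 with MS-275. Wnt10b stood at 0 and 0.00032 with solvent and at 0.00253 and 0.0103 with MS-275, and its log2 fold change of 1.06 (adjusted p = 0.00551 with the block in limma) was 0.55 without MS-275 replicate 2. In that library the Wnt10b value was 3.45 times what the matched alignments give, against 1.61 times in the other MS-275 library. Wnt9b, Wnt1 and Wnt10b were tested only through their MS-275 values, so a difference was a condition of the test.

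Wnt10a had values of 0.00156 and 0.00064 with solvent and 0.00576 and 0.00521 with MS-275, so the groups did not overlap. Wnt7a, a ligand of neurons and limb ectoderm, had 0.00352 and 0.00104 with solvent and 0.00952 and 0.00692 with MS-275. The values of its solvent libraries rest on 2 and 3 alignments, and the positions in exons were 4 with solvent and 73 with MS-275. Wnt5b, a ligand of the branch that acts without beta-catenin, had 0.00242 and 0.00262 with solvent and 0.00910 and 0.00780 with MS-275, with solvent libraries close together and both MS-275 libraries above them.

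Wnt4, known in kidney and gonad development, had 0.00093 and 0.00155 with solvent and 0.00915 and 0.00416 with MS-275. Wnt6 had 0.00655 and 0.00311 with solvent and 0.0176 and 0.00777 with MS-275. Wnt8b, a ligand of the developing forebrain, had 0.00333 and 0.00104 with solvent and 0.0108 and 0.00400 with MS-275. In all 3 the groups did not overlap and replicate 1 of MS-275 stood well above replicate 2, and in Wnt6 and Wnt8b the gap between the groups was narrow.

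The log2 fold changes of these 6 ligands lay between 0.75 (Wnt8b) and 0.87 (Wnt7a), with adjusted p from 0.0177 (Wnt7a) to 0.0427 (Wnt6) with the block in limma. Without MS-275 replicate 1 the change fell to 0.56 in Wnt4, 0.40 in Wnt6 and 0.34 in Wnt8b. Without MS-275 replicate 2 it was 1.23 in Wnt6 and 1.16 in Wnt8b. After quantile normalization none of the 6 passed with the block.

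The other 6 ligands did not pass with the block. Wnt5a, a ligand of cell movement and polarity, had 0.0183 and 0.0118 with solvent and 0.00581 and 0.0106 with MS-275 (log2 fold change -0.61, adjusted p = 0.176). Wnt7b had 0.0143 and 0.0102 with solvent and 0.00925 and 0.00267 with MS-275 (-0.71, adjusted p = 0.0820). These were the ligands with the highest solvent levels and the only 2 of the 19 with a negative log2 fold change in the values as deposited. By distinct positions with the block Wnt7b was lower (-1.25, adjusted p = 0.00377 in limma-voom), from 123 exon positions with solvent to 49 with MS-275. With the block in limma, Wnt7b was also lower after median-ratio scaling (-0.90, adjusted p = 0.0187) and quantile normalization (-1.25, adjusted p = 0.00841). Wnt5a was lower with the block after quantile normalization (-1.08, adjusted p = 0.0248 in limma) and did not pass after median-ratio scaling (adjusted p = 0.0563). Wnt1, Wnt2, Wnt2b and Wnt11 had log2 fold changes between 0.13 and 0.54, with mean MS-275 levels from 0.00119 (Wnt2) to 0.0111 (Wnt11). After quantile normalization the sign of Wnt2, Wnt2b and Wnt11 turned.

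Paralogs therefore stood on different sides in Wnt5a and Wnt5b and in Wnt7a and Wnt7b, and on the same side in Wnt3 and Wnt3a, Wnt8a and Wnt8b, Wnt9a and Wnt9b and Wnt10a and Wnt10b. Whether the change differed within a pair was not tested. Of the 19 ligands, 8 lie as neighbouring pairs on mm9: Wnt6 and Wnt10a with 6.2 kb between them, Wnt10b and Wnt1 with 11.7 kb, Wnt3a and Wnt9a with 16.2 kb, and Wnt9b and Wnt3 with 24.3 kb. All 8 had a positive log2 fold change, with 0.81 and 0.79 in the Wnt6 and Wnt10a pair, 1.17 and 1.27 in the Wnt9b and Wnt3 pair, 1.07 and 2.03 in the Wnt3a and Wnt9a pair, and 1.06 and 0.54 in the Wnt10b and Wnt1 pair. A positive change was also seen in every other ligand except Wnt5a and Wnt7b, so the sign was not particular to neighbours. Wnt1, Wnt9b and Wnt10b were tested only through their MS-275 values, which favours a positive sign in them. Wnt1 itself did not pass (adjusted p = 0.0627 with the block in limma).

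**Figure D3:**
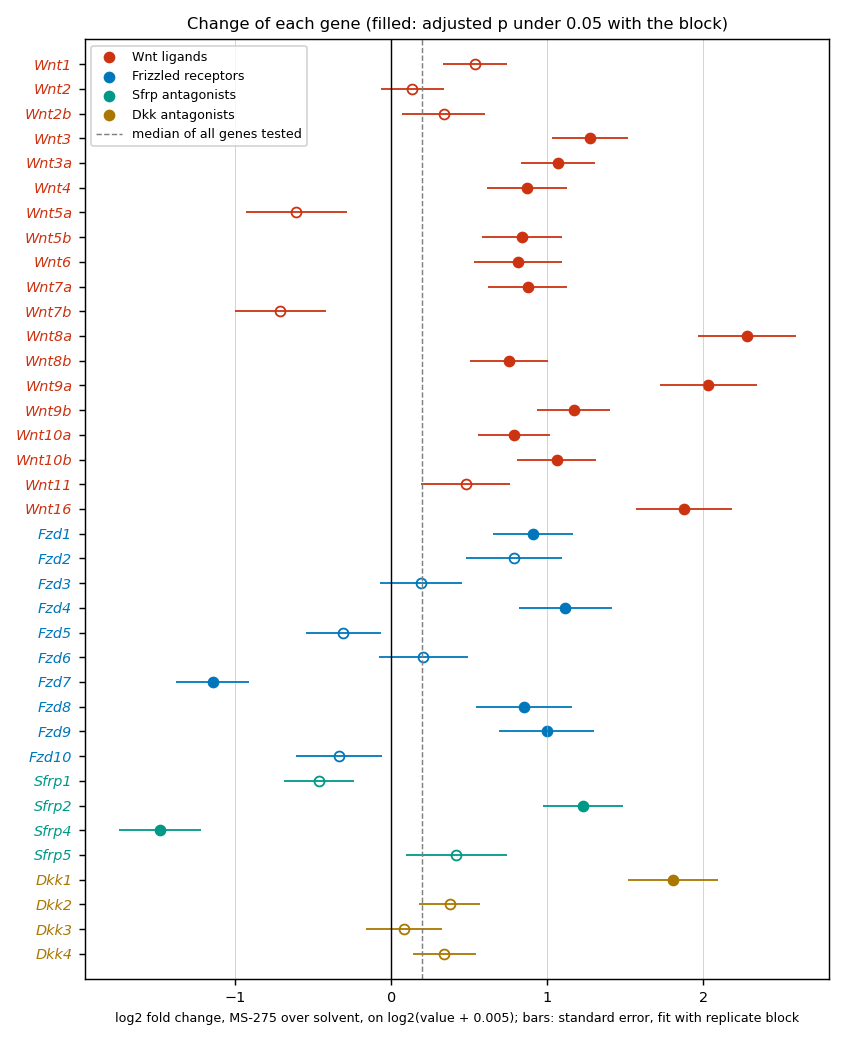
Log2 fold change of MS-275 over solvent on log2(value + 0.005) for each of the 37 genes, with bars for the standard error of the fit with the replicate block, filled points for an adjusted p under 0.05 in that fit and a dashed line at the median of all genes tested (0.20). Filled points lie to the right of the line except Fzd7 (-1.14) and Sfrp4 (-1.48).

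The Frizzled receptors included the most abundant genes of the set. Fzd7, a receptor known for its high level in pluripotent cells (chromosome 1 of mm9, 59538991 to 59543791), had values of 0.361 and 0.677 with solvent and 0.187 and 0.261 with MS-275. Both MS-275 libraries lay below both solvent libraries, and the solvent libraries differed from each other more than the MS-275 libraries did. The log2 fold change was -1.14 (standard error 0.234, adjusted p = 0.00194 with the block in limma; adjusted p = 0.242 without the block), and it was -0.70 without solvent replicate 2. Its exons held 1117 and 4446 alignments with solvent and 680 and 1516 with MS-275, so depth did not limit this gene.

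The promoter window of Fzd7 is shown as that of a receptor gene that was lower. It lies at chr1:59481897-59482196 (GRCm38.p6, plus strand, RefSeq), and capitals mark GC boxes and CCAAT boxes on either strand.
Fzd7: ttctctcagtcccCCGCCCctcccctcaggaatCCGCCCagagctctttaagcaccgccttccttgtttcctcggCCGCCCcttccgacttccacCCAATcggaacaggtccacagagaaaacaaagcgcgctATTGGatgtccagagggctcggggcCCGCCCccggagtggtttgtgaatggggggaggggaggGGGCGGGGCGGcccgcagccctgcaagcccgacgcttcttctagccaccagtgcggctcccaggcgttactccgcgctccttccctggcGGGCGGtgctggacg
It holds 24 CG dinucleotides, 6 GC boxes that do not overlap each other, and 2 CCAAT boxes, so GC boxes were present in windows of genes that moved in opposite directions.

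Fzd5, the other abundant receptor and a close relative of Fzd8, had 0.403 and 0.544 with solvent and 0.317 and 0.451 with MS-275. The groups overlapped, and the log2 fold change of -0.31 did not pass (adjusted p = 0.366 with the block in limma). Fzd8 had 0.0110 and 0.00586 with solvent and 0.0203 and 0.0173 with MS-275 (0.85, adjusted p = 0.0494 with the block in limma). Fzd8 passed in 3 of 7 blocked fits and did not after median-ratio scaling (adjusted p = 0.109) or quantile normalization (adjusted p = 0.485).

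Fzd1 belongs to the same subfamily as Fzd7 and Fzd2. It had 0.00270 and 0.00205 with solvent and 0.00924 and 0.00840 with MS-275 (0.91, adjusted p = 0.0154 with the block in limma). Fzd2 had mean values of 0.0132 with solvent and 0.0266 with MS-275, and this change of 0.79 did not pass (adjusted p = 0.0704 with the block in limma), while by distinct positions it was higher (1.10, adjusted p = 0.000252 with the block in limma-voom). Within this subfamily the low Fzd1 and the abundant Fzd7 thus had changes of opposite sign.

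Fzd4, a receptor of the retinal vasculature that also binds norrin, had 0.0219 and 0.0148 with solvent and 0.0571 and 0.0354 with MS-275. The log2 fold change was 1.12 (standard error 0.297, adjusted p = 0.0110 with the block in limma), and the pair ratios were 2.60 and 2.39. Fzd9 had 0.0252 and 0.00889 with solvent and 0.0495 and 0.0256 with MS-275, so the lower MS-275 library barely exceeded the higher solvent library. Its change of 0.996 (adjusted p = 0.0239 with the block in limma) was 0.44 without solvent replicate 2, 0.58 without MS-275 replicate 1 and 1.56 without solvent replicate 1.

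Fzd3 and Fzd6, receptors of tissue polarity, did not pass. Fzd3 had 0.0717 and 0.0338 with solvent and 0.0836 and 0.0388 with MS-275, and Fzd6 had 0.0474 and 0.0315 with solvent and 0.0673 and 0.0301 with MS-275. Both differed more between replicates than between conditions. Fzd10 had 0.0629 and 0.0426 with solvent and 0.0415 and 0.0388 with MS-275, with no overlap between groups (log2 fold change -0.33, adjusted p = 0.398 with the block in limma).

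The 4 Sfrp genes divided in direction. Sfrp4 (chromosome 13 of mm9, 19714973 to 19724863) had 0.162 and 0.0559 with solvent and 0.0475 and 0.0199 with MS-275. It was 3.42-fold lower in the first pair and 2.81-fold lower in the second, and the highest MS-275 value lay just below the lowest solvent value. The log2 fold change was -1.48 (standard error 0.265, adjusted p = 0.000703 with the block in limma; adjusted p = 0.272 without), with -0.75 when solvent replicate 1 was left out and -0.94 when MS-275 replicate 2 was. Exon positions fell from 922 with solvent to 262 with MS-275.

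Sfrp2 had 0.0637 and 0.0768 with solvent and 0.110 and 0.262 with MS-275. Both MS-275 libraries lay above the solvent libraries, the second by much more than the first. The log2 fold change was 1.23 (standard error 0.255, adjusted p = 0.00219 with the block in limma) and 0.62 without MS-275 replicate 2. In that library the value was 5.14 times what the matched alignments give, against 1.49 times in the other MS-275 library, and exon positions numbered 152 with solvent and 281 with MS-275, a ratio of 1.92 after scaling to all positions of each condition.

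Sfrp1, the secreted antagonist with the highest group means although Sfrp2 lay above it in MS-275 replicate 2, had 0.338 and 0.269 with solvent and 0.231 and 0.205 with MS-275. The groups did not overlap and the log2 fold change of -0.46 did not pass (adjusted p = 0.133 with the block in limma). With the block in limma, Sfrp1 was lower after median-ratio scaling (-0.75, adjusted p = 0.0127) and quantile normalization (-0.54, adjusted p = 0.038). By distinct positions it was lower without and with the block (-0.56, adjusted p = 0.0298 and 0.000115 in limma-voom). Sfrp5 overlapped between groups, at 0.0101 ± 0.00605 in solvent and 0.0144 ± 0.00124 in MS-275 libraries (mean and SD, n = 2 each).

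Dkk1, a secreted antagonist of Lrp5 and Lrp6 and itself a known target of beta-catenin (chromosome 19 of mm9, 30620353 to 30624155), had the largest pair ratios of the antagonists with solvent values above 0. Its value was 0.00313 and 0.00163 with solvent and 0.0252 and 0.0168 with MS-275, 8.05-fold and 10.3-fold higher in the 2 pairs. The log2 fold change was 1.81 (standard error 0.287, adjusted p = 0.000278 with the block in limma; adjusted p = 0.0912 without), and by distinct positions it passed without the block as well (adjusted p = 0.00903 in limma-voom). In distinct positions no solvent library reached 10, so a high MS-275 count was a condition of that test. The solvent values rest on 4 and 6 alignments, and the MS-275 values on 41 and 52.

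The Dkk1 window is printed because it was the only one of the 4 shown with a TATA box and with the core of the TCF/LEF motif. It lies at chr19:30549447-30549746 (GRCm38.p6, minus strand, RefSeq). Capitals mark the TATA box (TATAAA) and the TCF/LEF core (CTTTGA, or TCAAAG on the other strand).
Dkk1: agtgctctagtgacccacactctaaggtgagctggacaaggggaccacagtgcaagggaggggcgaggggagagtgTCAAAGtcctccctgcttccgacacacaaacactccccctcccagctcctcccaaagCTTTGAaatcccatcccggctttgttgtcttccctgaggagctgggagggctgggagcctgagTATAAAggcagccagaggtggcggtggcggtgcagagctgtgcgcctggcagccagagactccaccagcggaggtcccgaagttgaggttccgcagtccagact
The TCF/LEF core letters occur 2 times in it, and 16.0% of all promoters in the table hold them at least once. A match describes letters and not binding.

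Dkk3, which belongs to the family by sequence, had 0.106 and 0.0589 with solvent and 0.0968 and 0.0725 with MS-275, with overlapping groups (log2 fold change 0.08, adjusted p = 0.841 with the block in limma). Dkk2 and Dkk4 stayed at 0.00209 or less in every library and did not pass. Dkk2 was listed at 0 in both solvent libraries, with 11 exon positions over the MS-275 libraries.

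Across the promoter table, 25 of the 37 genes matched, with 28 windows. Those without one were Wnt5a, Wnt7b, Wnt8a, Wnt10a, Fzd2, Fzd3, Fzd6, Fzd8, Sfrp1, Sfrp4, Dkk3 and Dkk4. A GC box stood in 21 of the 28, and in 35.7% of the 32851 windows of all genes. A TATA box stood in 4 (13.6% of all), a CCAAT box in 11 (37.4%), a TCF/LEF core in 4 (16.0%) and an E-box in 2 (7.15%), each searched on both strands. The median number of CG dinucleotides was 26.5 in the 28 windows and 7 in all windows. A window without a motif lacks only these letters.

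Read density was higher in exons than in introns in most of these genes. Of the 30 genes with at least 1000 intron bases, positions per kb were higher in exons than in introns in 25 with solvent and in all 30 with MS-275. Wnt9a had 51 exon and 5 intron positions with solvent and 322 and 65 with MS-275. Wnt8a had 14 exon and 9 intron positions with solvent and 126 and 108 with MS-275, so 39.1% and 46.2% of its positions were intronic, and its reads also ran on past the annotated gene end. In Wnt9b the counts were 0 and 1 with solvent and 63 and 24 with MS-275, and Wnt10b had no intron position with MS-275. In absolute numbers intron positions exceeded exon positions in Wnt5b (47 exon and 123 intron positions with MS-275), Wnt6 (63 and 73 with MS-275) and, with solvent, Wnt2b (44 and 89), and with solvent also in Wnt9b, Wnt10b and Dkk4, which had at most 2 intron positions.

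**Figure D4:**
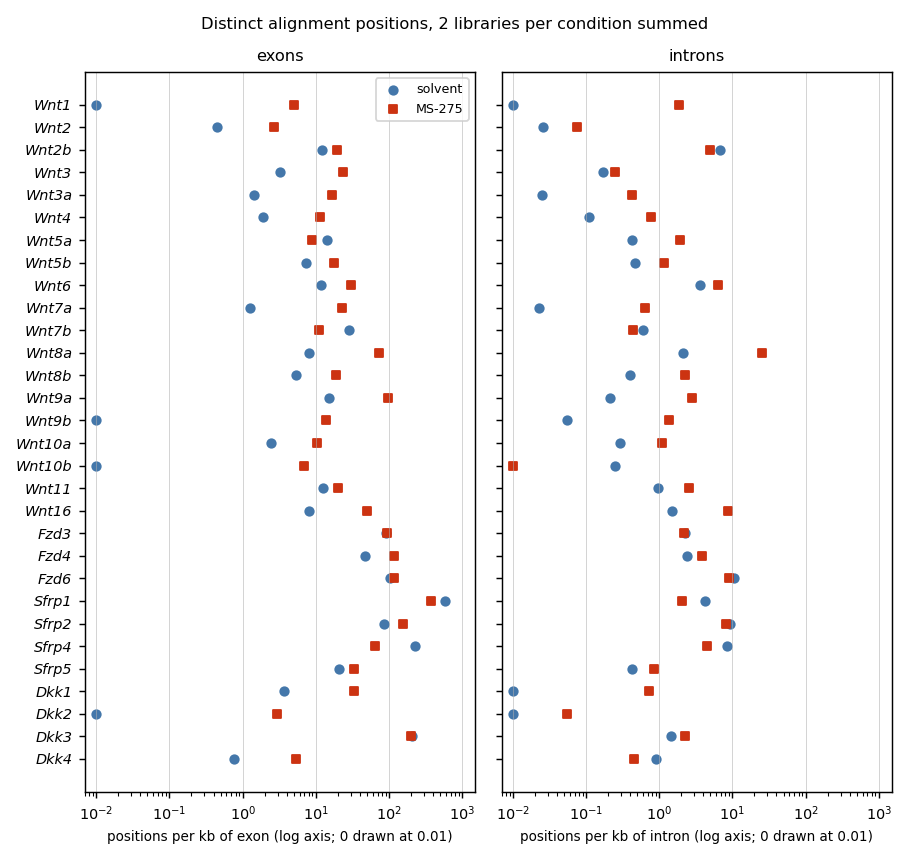
Distinct alignment positions per kb of exon (left) and intron (right), on log axes, for the 30 genes with at least 1000 intron bases, with the 2 libraries of each condition summed (solvent blue circles, MS-275 red squares, 0 drawn at 0.01). Exon densities exceed intron densities in most genes, and both are higher with MS-275 in Wnt8a, Wnt9a and Wnt16.

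**Figure D5:**
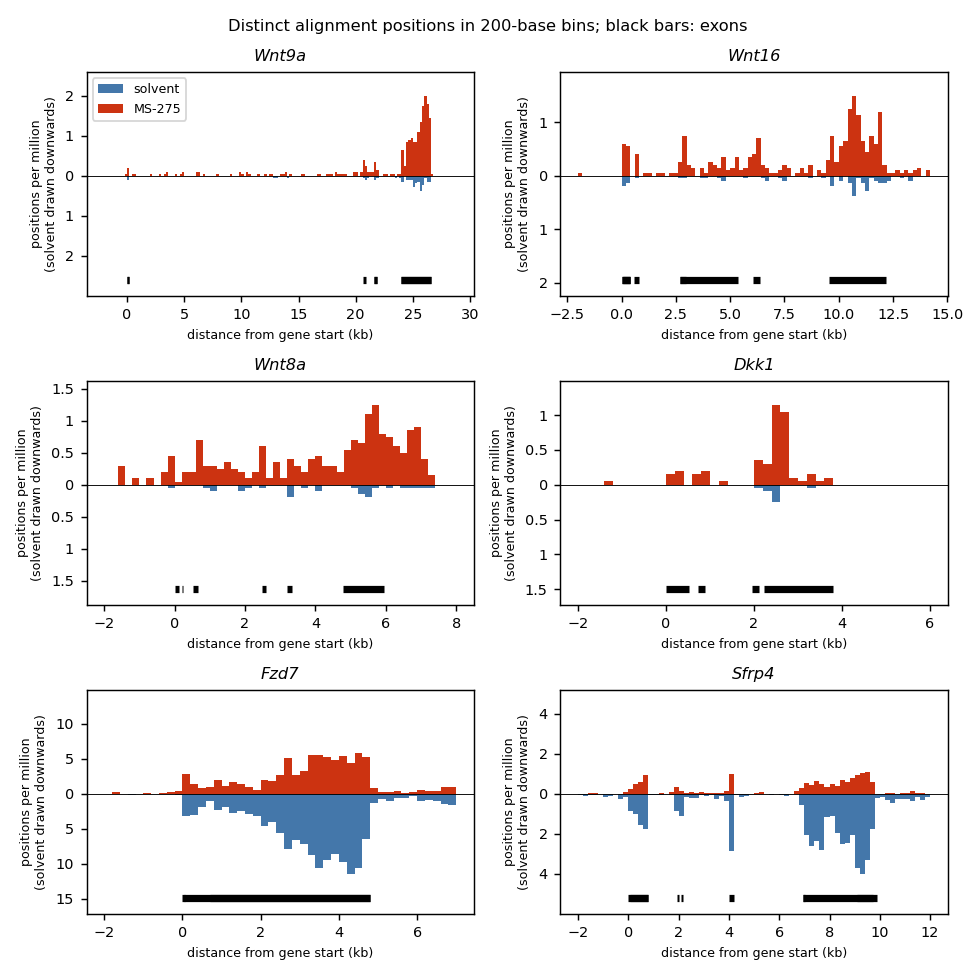
Distinct alignment positions, scaled to the total of each condition, in 200-base bins along 6 genes, by distance from the gene start in kb, with MS-275 drawn upwards in red, solvent downwards in blue and exons as black bars. Reads gather over the last exon in Wnt9a, Wnt16 and Dkk1 with MS-275, and over the exons of Fzd7 and Sfrp4 more in solvent.

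Other genes of the pathway were read from lists chosen for their role, and their counts stand beside 21.0% of all genes higher and 6.46% lower with the block. Of 17 tested genes of Wnt secretion and extracellular modulation, 8 were higher with the block and 0 lower. The largest rises were those of the antagonists Sost, from 0 and 0.00064 to 0.0111 and 0.0636 (log2 fold change 2.65), and Wif1, from 0.00684 and 0.00771 to 0.0755 and 0.0586 (2.54). Sost and Sostdc1, both among the 8, were tested only through their MS-275 values, so a difference was a condition of the test. Frzb, the mouse gene of the third Sfrp-like antagonist, had 0 and 0.00018 with solvent and 0.00192 and 0.00220 with MS-275 and did not pass (adjusted p = 0.0925 with the block in limma). Porcn, which attaches the lipid to the ligands, was among the 8.

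Of 14 co-receptors and R-spondin receptors, 5 were higher and 0 lower, led by the R-spondin receptors Lgr5 (log2 fold change 1.85, from 0.00065 and 0.00228 to 0.0247 and 0.0129) and Lgr6 (1.41). Lrp5 and Lrp6 did not pass. Of 19 genes of the destruction complex and Dishevelled, 3 were higher and 0 lower, a share no larger than that of all genes, with the GSK3-binding Frat2 (1.10) and Apc2 (0.79) first, and Ctnnb1, which encodes beta-catenin, did not pass (adjusted p = 0.532 with the block in limma). Of 16 TCF/LEF factors and cofactors, again with no more higher than among all genes, 2 were higher, Bcl9l (1.49) and Ctnnbip1 (1.40), and 3 lower, led by the corepressor Tle3 (-1.43) and Tcf7l2 (-0.78).

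Of 15 genes known as beta-catenin targets, 8 were higher and 3 lower. Cdx2, among the 8, was tested only through its MS-275 values. Cdx1, a caudal homeobox gene, had 0.0214 and 0.00963 with solvent and 0.184 and 0.120 with MS-275 (log2 fold change 2.96), and the feedback inhibitor Nkd1 had 0.0146 and 0.010 with solvent and 0.0787 and 0.0554 with MS-275 (2.05). Axin2, a widely used readout of the pathway, was higher by a smaller amount, from 0.0208 and 0.0336 to 0.0535 and 0.0505 (0.85, adjusted p = 0.0425 with the block in limma). Nr5a2 (-2.27) and Ccnd1 (-1.78) were the most reduced. Of 12 planar cell polarity genes 3 were higher, led by Prickle1 (1.46) and Celsr2 (1.34), and 1 was lower, Vangl1 (-1.69). In all 6 lists 0 genes passed without the block.

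Markers of other cells were read in the same libraries, again beside 21.0% of all genes higher and 6.46% lower with the block. Of the 10 fibroblast markers, which a feeder layer could carry, 5 were higher with the block (Col1a1, Col1a2, Thy1, Lum and Fbn1) and 0 lower. Their summed value was 0.297 and 0.275 with solvent and 0.563 and 0.625 with MS-275, and none was at 0 in all libraries. Of 7 primitive endoderm markers 2 were higher (Sox17 and Pdgfra), with sums of 0.137 and 0.0415 with solvent and 0.245 and 0.0794 with MS-275. Of 6 primitive streak markers 1 was higher (the brachyury gene T), with sums of 0.0458 and 0.0230 with solvent and 0.0939 and 0.0563 with MS-275. Of 6 neural progenitor markers 2 were higher (Nes and Fabp7) and 1 lower (Sox1), with sums of 0.0872 and 0.0668 with solvent and 0.168 and 0.152 with MS-275. Of the 10 ESC markers 4 were lower (Pou5f1, Esrrb, Utf1 and Fgf4) and 0 higher. The part of these cells in the changes of the Wnt genes was not tested, and fewer cells of a type and less RNA per cell cannot be told apart in bulk samples.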

How the data were processed

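The authors mapped the reads to mm9 and, per the paper's methods, obtained normalized expression values with Genomatix; the deposited value is a signal per gene and not a count, and its formula, the aligner and the handling of repeated reads are not given in the sources used here. The authors also deposited the alignments of each library (35 bases each) and tables of values at 0.001 or more and of ratios; the last 2 were not used. The 37 genes, the gene lists, the tests and the alternatives were chosen with earlier results of these data known.

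Values were tested as log2(value + 0.005) with limma 3.58.1 (lmFit, eBayes with a trend) in R 4.3.3, over genes at 0.001 or more in at least 2 libraries, without and with the replicate number as a block, and p was adjusted by the Benjamini-Hochberg method over all genes tested. The block comes from the headers that call replicate 1 old. The same-number deviations correlated at 0.764 for values and 0.501 for distinct positions. Alignments and distinct positions were counted in the exons and introns of GENCODE M1 genes on mm9, leaving out bases shared between genes, with Python 3.11.15, and positions were tested with limma-voom where at least 10 were found in at least 2 libraries. All 37 genes are named in the text. Those that passed without or with the block or reached 0.05 in any library have their values in every library given. From each pathway list the 2 largest rises and the 2 largest falls among genes that passed with the block are named. Frzb, Porcn, Sostdc1, Lrp5, Lrp6, Ctnnb1, Axin2 and Cdx2 were named after their values were seen. Of 135 list entries, 131 matched by symbol, 3 by Entrez identifier and 1 was not listed. Pseudocounts, filters, scalings, eBayes without a trend, other folds and floors, crossed pairs and each library left out in turn were tried.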

Additional observations from a re-analysis of the deposited data

How the results depend on the processing

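The replicate block moved the counts most: the members called higher went from 0 to 19 and lower from 0 to 2, and all genes called from 1 and 0 to 4277 and 1314. Among fits without the block only the filter on a mean value of at least 0.01 (2 members higher, 466 genes higher and 65 lower) and limma-voom on distinct positions (12 and 3 members, 2614 and 904 genes) called any member; pseudocounts of 0.001 and 0.02, no filter, median-ratio scaling, quantile normalization and eBayes without a trend called 0 genes. With the block the members called higher and lower, and all genes, were 16 and 4 (3379 and 2864) with median-ratio scaling, 9 and 5 (2828 and 2681) with quantile normalization, 18 and 2 (4216 and 1220) with pseudocount 0.001, 19 and 2 (3790 and 1158) with pseudocount 0.02, 7 and 2 (2751 and 1091) with the mean filter, and 19 and 4 (4859 and 2299) by distinct positions. In the 7 blocked fits, each gene counted in those that tested it, Wnt3, Wnt3a, Wnt8a, Wnt9a, Wnt9b, Wnt10b, Wnt16, Sfrp2 and Dkk1 were higher in all and Fzd7 and Sfrp4 lower in all. Of these, Wnt9b and Wnt10b passed the main filter only through their MS-275 values. In the fit on distinct positions, Wnt3a, Wnt9b and Dkk1 were tested only through their MS-275 positions. The median of the members was 1.20 with pseudocount 0.001, 0.30 with 0.02, 0.42 with the mean filter, 0.63 with median-ratio scaling, 0.32 with quantile normalization, and 1.15 and 1.16 by distinct positions without and with the block; without one library it lay between 0.48 and 0.84. At 2-fold in both pairs the members were 4 higher and 1 lower with a floor of 0.01, and 10 higher and 0 lower at 3-fold. They were 14 higher and 2 lower with median-ratio scaling, and 12 higher and 0 lower with pairs crossed. The share of all genes at these settings is not given here. The Sfrp median (-0.02) turned to 0.056 with pseudocount 0.001, to 0.091 and 0.11 by distinct positions without and with the block, and lay between -0.31 and 0.27 without one library. Signs turned with quantile normalization, with or without the block, in Wnt2 (-0.021), Wnt2b (-0.18), Wnt11 (-0.064), Fzd3 (-0.073), Fzd6 (-0.11), Sfrp5 (-0.093) and Dkk3 (-0.078), and with median-ratio scaling in Fzd3 (-0.071), Fzd6 (-0.056) and Dkk3 (-0.19). The cause of these shifts was not tested. A fit without 1 library leaves a group with 1 library and unbalanced replicates, and is given as a value with no test. Values near 0 rest on few alignments, which limits most ligands in solvent.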
